A study of Macaca fascicularis with 64 samples.

Results

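The 8 genes described here make, carry, sense and break down active vitamin D, or answer the hormones that share its control of calcium and phosphate. They are CYP27B1 (listed as LOC102117707), CYP24A1, VDR, CYP2R1, CYP27A1, GC, KL and PTH1R, 8 of the 28141 genes measured in tissues of cynomolgus monkeys (Macaca fascicularis). The genes were chosen by name, with the knockout and wild-type values of kidney and liver in view, so those values are given below as a description and without a test. VDR, GC, KL and PTH1R are listed under their symbols. CYP24A1, CYP2R1 and CYP27A1 are listed under LOC numbers, as CYP27B1 is, and these 3 were found through the RefSeq gene number of their LOC name.

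RNA sequencing libraries were made from newborn brain, muscle, thymus, heart, lung, liver and kidney of 2 monkeys labelled SIRT6 mutant (KO2 and KO3) and 2 wild-type monkeys (WT2 and WT3), with 2 libraries per animal and tissue, 56 in all. SIRT6 is a nuclear sirtuin that removes acetyl groups from histones. A further 8 libraries came from wild-type fetal brain and muscle at gestation month 2 or month 4, with 2 libraries per month and tissue. The labels call the mutant animals KO in their titles, and no treatment is named for any group. What the mutation is was not given in the labels. Levels are FPKM, which divides fragments by gene length and library total. This allows genes of different length to be compared but keeps no read depth.

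Vitamin D made in skin or eaten is inactive. It is hydroxylated first in the liver, mainly by CYP2R1 and also by the mitochondrial enzyme CYP27A1, which acts on bile acid precursors too. The product travels in blood on the binding protein GC and is taken up by the proximal tubule of the kidney, where CYP27B1 adds the hydroxyl group that makes the active hormone calcitriol. Calcitriol binds the nuclear receptor VDR, and CYP24A1, a classic target of VDR, inactivates both calcitriol and its precursor. Parathyroid hormone, acting through its receptor PTH1R, raises CYP27B1, whereas the bone hormone FGF23, acting through its receptors with the co-receptor klotho (KL), lowers CYP27B1 and raises CYP24A1. Both hormones lower phosphate uptake in the proximal tubule.

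The tissues carried their own defining transcripts. For example, UMOD ran from 113 to 2728 FPKM in the 8 kidney libraries and reached at most 3.09 elsewhere, and ALB ran from 15630 to 34027 FPKM in liver and reached at most 42.2 elsewhere. Of 21 such markers, 1 overlapped another tissue: MYH6 reached down to 2.74 FPKM in heart and up to 5.69 elsewhere. SIRT6 itself had 5.24 (KO2) and 11.8 (KO3) FPKM in kidney against 11 and 11.5 in WT, and at 3.07 and 6.87 in liver against 6.18 and 8.62. It was not called in any of the 7 tissues (adjusted p from 0.545 in kidney to 0.941 in lung). A gene-level FPKM can miss a small deletion, so the labels are not checked by it. Each test below set 2 KO against 2 WT animals, and a gene was called at an adjusted p under 0.05 over all genes tested. Log2 changes are on the log2(FPKM + 1) scale and are given relative to the median change of all genes tested, while the standard error (SE) and adjusted p belong to the change before that subtraction.

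In wild-type newborns the steps of the pathway lay in different organs, with the carrier and CYP27A1 highest in liver, and the activating enzyme, klotho and the parathyroid hormone receptor highest in kidney. Kidney and liver were each tested against the mean of the 6 other WT tissues, with a term for the animal. The WT kidney and liver libraries are also a side of the contrasts in view when the genes were chosen, so these tests are not fully independent of the choice, and both use the same libraries. Genes with a mean of 1 FPKM or more over the WT libraries were tested, which leaves out CYP24A1. CYP27B1, VDR and KL reached that level through kidney (0.361, 0.661 and 0.883 FPKM over the other 6 tissues) and GC through liver (0.187), so these 4 had to differ, and their levels are described without a test. Of the other 3 (CYP2R1, CYP27A1 and PTH1R), 3 were called in kidney, where 46.4% of all genes were, and 2 in liver, where 63.8% were.

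GC, the vitamin D binding protein, had 745, 738, 905 and 913 FPKM in the 4 WT liver libraries and at most 0.761 in any other WT tissue. Liver held 99.9% of the summed WT level over the 7 tissues, and in brain and muscle GC was listed at 0 in all WT libraries. The log2 difference of liver from the other tissues was 9.92 (SE 0.18).

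CYP27A1 was found in all 7 tissues. WT liver libraries had 92.9, 93.5, 50.8 and 49.6 FPKM, so WT2 was above WT3, and the liver difference was 3.93 (SE 0.21, adjusted p = 4.33e-07). Kidney followed at a mean of 11.5 FPKM, muscle at 9.60, lung at 6.40, heart at 5.17, brain at 3.13 and thymus at 1.48. Of these neighbours only lung and heart overlapped between libraries. The kidney difference of 0.32 (SE 0.21, adjusted p = 0.0461) was the smallest called, and it was not called with quantile normalisation (adjusted p = 0.44), without the level filter (0.0723) or without the animal term (0.0549).

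CYP2R1, the main hydroxylase of the liver step, had no single high tissue. It averaged 2.94 FPKM in WT kidney, 2.49 in liver and 2.29 in thymus, and the libraries of these neighbours overlapped. Brain at 1.27, lung at 1.06, heart at 0.865 and muscle at 0.839 followed, again overlapping from 1 to the next. It was called in liver at 0.97 (SE 0.14, adjusted p = 0.00897) and in kidney at 0.46 (SE 0.14, adjusted p = 0.00199). Before the median of all genes was subtracted, the differences were 0.52 in liver and 0.72 in kidney, so the subtraction turned their order. The kidney call was lost with quantile normalisation (adjusted p = 0.28).

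CYP27B1 was nearly confined to kidney among the 7 WT tissues. Its 4 WT kidney libraries had 52.5, 52.8, 31.3 and 29.9 FPKM, which is 95.1% of the sum over tissues. Liver came next at a mean of 0.699 FPKM, 59.6-fold lower and without overlap, and liver, thymus and lung overlapped one another in turn. The log2 difference of kidney from the other tissues was 4.68 (SE 0.19).

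KL and PTH1R were also highest in kidney, with lung next. KL averaged 53.9 FPKM in WT kidney and 4.32 in lung, with no overlap, and at most 0.259 in the other 5 tissues, and its kidney difference was 4.85 (SE 0.26). PTH1R averaged 161 FPKM in kidney, 28.4 in lung, 8.49 in liver, 3.85 in heart, 2.47 in muscle, 1.38 in brain and 0.351 in thymus, and of these neighbours only heart and muscle overlapped. Its kidney difference was 4.76 (SE 0.25, adjusted p = 8.84e-08), and in liver it was not called (adjusted p = 0.352).

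VDR averaged 6.06 FPKM in WT kidney and 1.12 in lung, again without overlap, and its kidney difference was 1.88 (SE 0.31). From lung down to muscle at 0.110 FPKM each tissue overlapped the next. In WT brain the 2 animals stood apart, with 1.44 and 1.89 FPKM in WT2 and 0.0499 and 0.0507 in WT3. CYP24A1, the inactivating enzyme, stood apart by animal in WT kidney too, with 2.74 and 3.02 FPKM in WT2 against 0.0197 and 0.0568 in WT3. Its only other level of note was in thymus, at 0.432 FPKM, and it was listed at 0 in all WT libraries of brain, muscle, heart and lung.

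**Figure D1:**
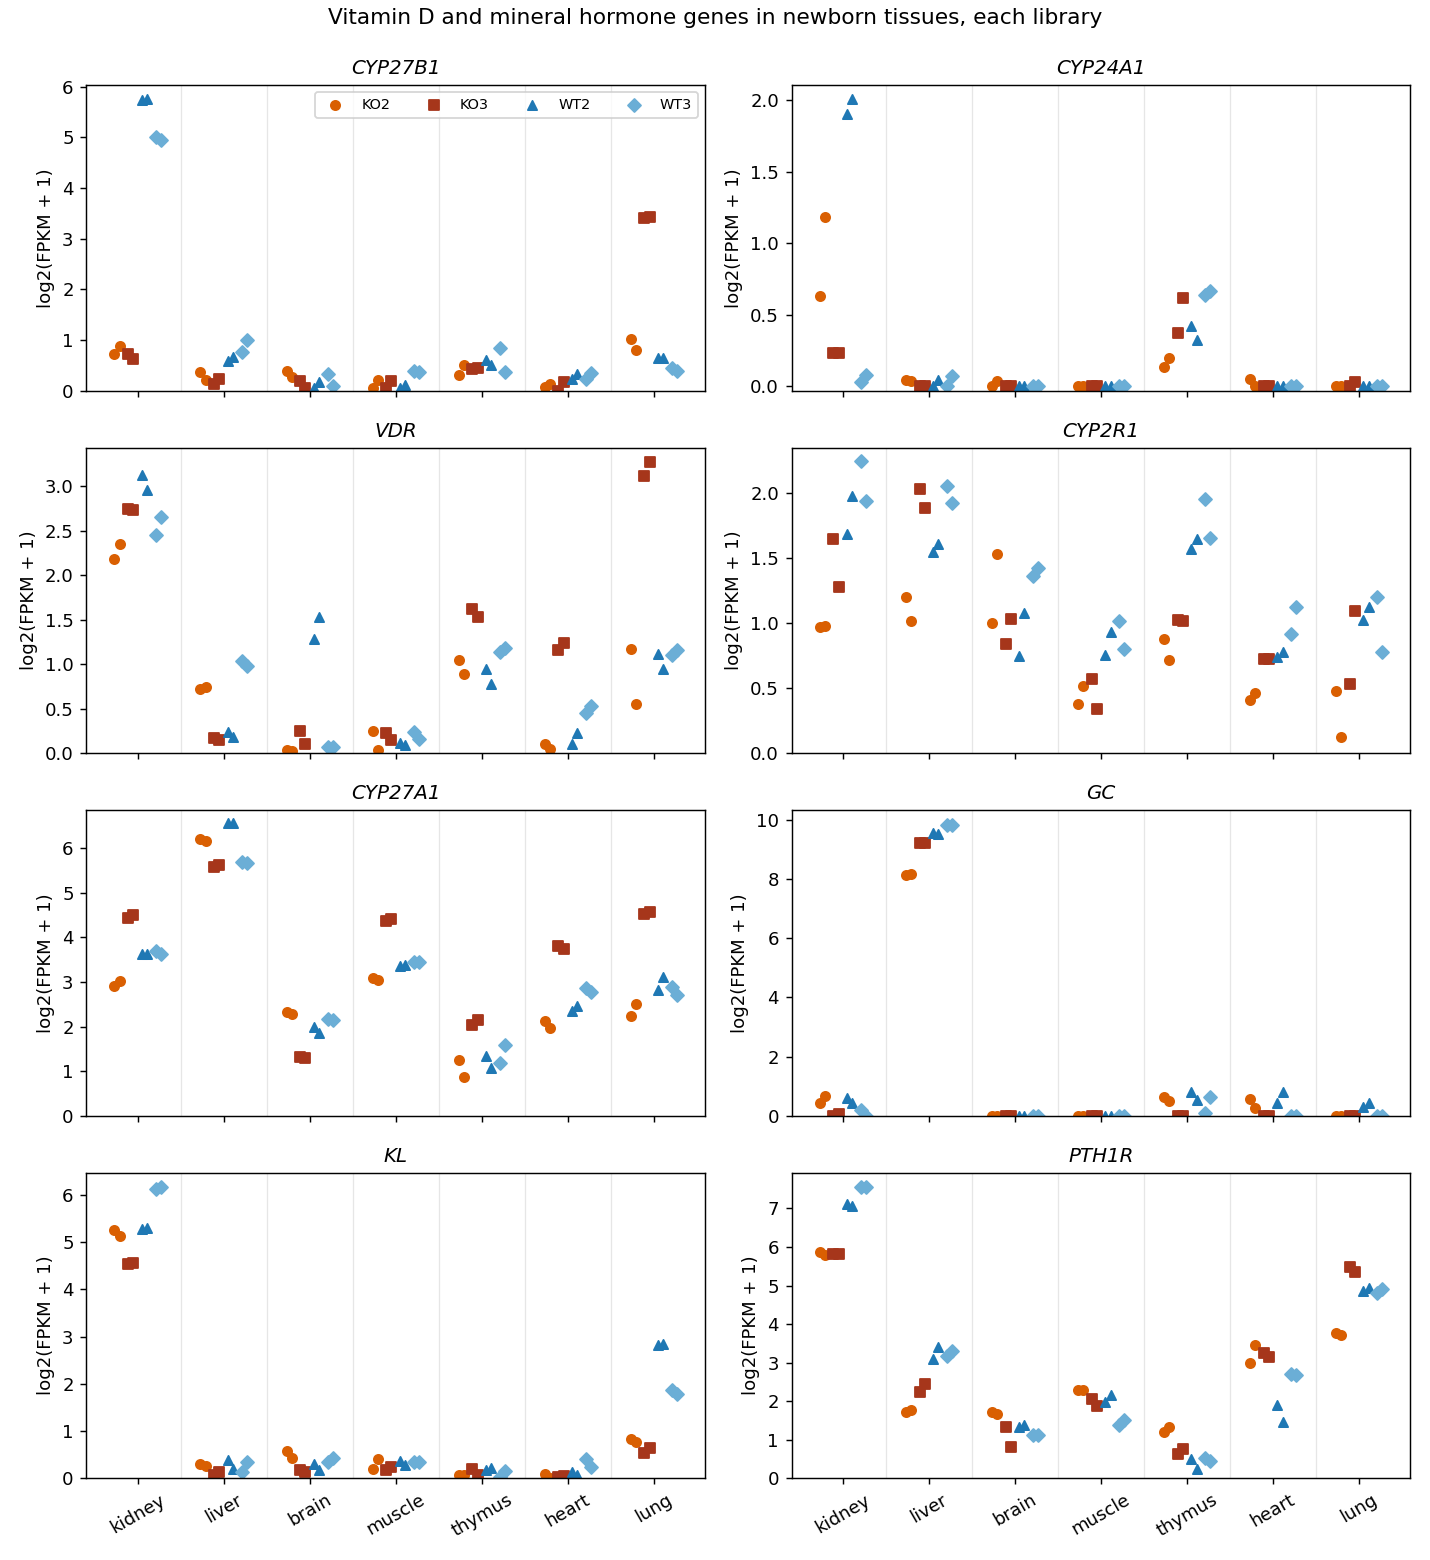
Level of the 8 genes on the log2(FPKM + 1) scale in each newborn library, by tissue, with 1 panel per gene and its own vertical range; each point is 1 library, and its shape and color give the animal (KO2, KO3, WT2, WT3). CYP27B1, KL and PTH1R are highest in kidney and GC in liver, and the kidney KO points of CYP27B1, 0.532 to 0.853 FPKM, lie below all WT points.

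In KO kidney the activating enzyme was near the level of tissues that barely express it, the parathyroid hormone receptor was lower, and the other genes differed less. CYP27B1 had 0.661 and 0.853 FPKM in KO2 and 0.638 and 0.532 in KO3, against the WT values of 29.9 to 52.8 given above. The groups did not overlap. The means were 0.671 ± 0.121 in KO and 41.7 ± 15.6 in WT (SD, n = 2 animals each), a 62.1-fold difference, and the log2 change of −4.59 (SE 0.34) was the third lowest of the 13937 genes tested in kidney. CYP27B1 reached the level filter in kidney through WT alone, so it had to be lower in KO, and the rank is a description. In bulk tissue fewer cells of a type and less RNA per cell cannot be told apart.

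PTH1R had 57.7 and 54.1 FPKM in KO2 and 55.4 and 55.3 in KO3, against 136, 133, 187 and 186 in WT. The KO animals were alike and both lay below both WT animals, at a log2 change of −1.46 (SE 0.29). KL had 37.3 and 33.8 FPKM in KO2 and 22.2 and 22.8 in KO3, against 37.9 and 38.3 in WT2 and 68.7 and 70.7 in WT3. KO2 and WT2 were nearly level, and the change was −0.80 (SE 0.37).

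VDR had 3.56 and 4.12 FPKM in KO2, 5.68 and 5.66 in KO3, 7.73 and 6.76 in WT2 and 4.45 and 5.28 in WT3. The groups overlapped, with a change of −0.25 (SE 0.34). CYP24A1 had 0.548 and 1.27 FPKM in KO2 and 0.176 and 0.177 in KO3, between the high WT2 and the low WT3 values, with a change of −0.39 (SE 0.59). It too reached the level filter in kidney through WT alone, at a KO mean of 0.543 FPKM.

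CYP27A1 split the KO animals: 6.54 and 7.09 FPKM in KO2 and 20.5 and 21.6 in KO3, on either side of WT values of 11.3 to 12. Its change was 0.12 (SE 0.45). CYP2R1 had 0.959 and 0.967 FPKM in KO2 and 2.14 and 1.43 in KO3, below WT libraries of 2.22 to 3.75, with a change of −0.70 (SE 0.35). GC was below the level filter. Of the 7 genes tested in kidney, 2 (CYP27B1 and PTH1R) passed as lower, where 4.76% of all genes were called lower and 1.02% higher. Since kidney was part of how the genes were chosen, nothing is read from that count.

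Kidney segment markers differed between KO and WT too. Of 15 proximal tubule markers tested, 13 were called lower in KO and 0 higher, with a median change of −2.02, and their summed level was 1275 to 1370 FPKM in KO against 4497 to 4995 in WT. Of 9 tested markers of Henle's loop and the distal tubule, 4 were lower, with sums of 333 to 632 against 3274 to 3561. Of 9 collecting duct markers 2 were lower, with sums of 271 to 352 against 1052 to 1392. Of 9 podocyte markers 1 was higher and 0 lower, with sums of 679 to 696 against 435 to 509. Nephron progenitor markers summed to 34.1 to 46.0 against 13.6 to 16, erythroid markers to 77.1 to 200 against 1345 to 1540, and macrophage markers to 12.7 and 45.3 in KO2 and KO3 against 64.2 and 61.7 in WT. Of 7 tested erythroid markers 1 was called lower and 1 higher, with a median change of 0.013, so their sum does not stand for the list. Of 3 tested progenitor markers 1 was higher, and of 9 tested macrophage markers 1 was lower. No marker of the 4 segment lists was at 0 in kidney. The part of these shifts in the values of the 8 genes was not tested, but some of the genes can be set against the summed markers of a nephron segment. A single list was chosen for each such gene. Whether the gene lies in that segment alone was not tested.

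Per 1000 FPKM of proximal tubule markers, CYP27B1 was 0.552 and 0.458 in KO2 and KO3 and 10.6 and 6.81 in WT2 and WT3, a 17.3-fold difference with no overlap between libraries. PTH1R on the same scale was 40.8 and 43.3 in KO and 27.2 and 41.5 in WT, so its WT to KO ratio was 0.817. CYP27A1 was 4.97 and 16.5 in KO and 2.28 and 2.59 in WT. Against the loop and distal tubule markers KL was 105 and 35.8 in KO and 10.7 and 21.0 in WT, higher in both KO animals. UMOD, among these markers, ran from 113 to 2728 FPKM in kidney, so this ratio rests in large part on UMOD. KL against the same markers without UMOD was not computed. Against the collecting duct markers VDR was 11 and 20.8 in KO and 6.88 and 3.50 in WT. On this scale, with the list chosen for each gene, CYP27B1 alone of the 5 genes was lower in both KO animals than in both WT animals.

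**Figure D2:**
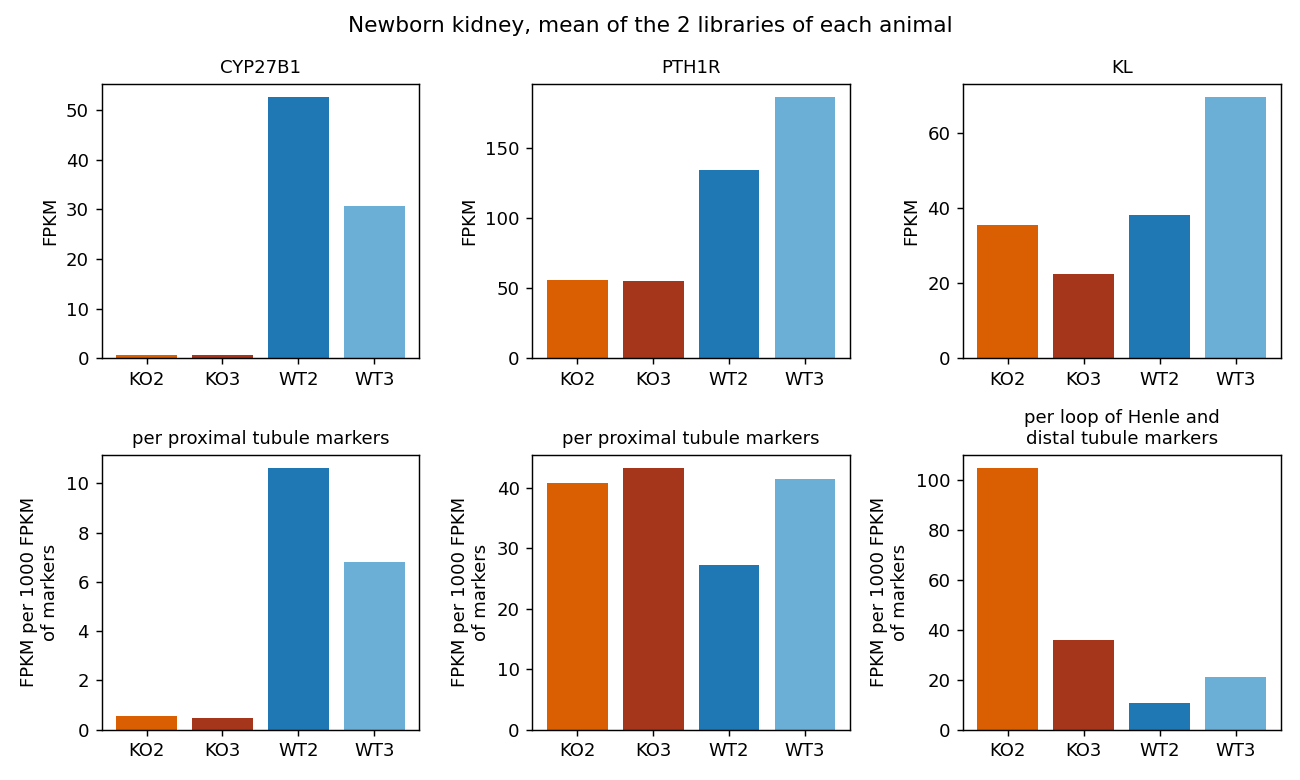
CYP27B1, PTH1R and KL in newborn kidney as FPKM (upper row) and per 1000 FPKM of the summed markers of a nephron segment (lower row), on linear axes from 0; each bar is the mean of the 2 libraries of an animal, and no error is drawn. CYP27B1 is lower in both KO animals in both rows, whereas PTH1R is lower in the upper row only, at 40.8 and 43.3 in the KO animals against 27.2 and 41.5 in WT in the lower row.

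In KO liver the carrier and the receptor for parathyroid hormone had lower levels than in WT. The hydroxylases overlapped WT, though CYP2R1 in KO2 lay below all WT libraries and CYP27A1 in KO3 lay slightly below them. GC had 278 and 284 FPKM in KO2 and 596 and 590 in KO3, against 745, 738, 905 and 913 in WT. The KO libraries lay below all WT libraries, and the log2 change was −0.82 (SE 0.43). PTH1R had 2.27 and 2.45 FPKM in KO2 and 3.71 and 4.46 in KO3, against 7.54, 9.57, 7.98 and 8.88 in WT, with no overlap and a change of −1.01 (SE 0.47).

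CYP27A1 had 72.9 and 70.8 FPKM in KO2 and 46.9 and 48.0 in KO3, against 92.9, 93.5, 50.8 and 49.6 in WT, and the change was −0.03 (SE 0.48). CYP2R1 had 1.30 and 1.02 in KO2 and 3.10 and 2.71 in KO3, against 1.93 to 3.16 in WT, and the change was −0.06 (SE 0.49). The other members were low in liver. CYP27B1 had 0.0941 to 0.296 FPKM in KO against 0.492 to 1.01 in WT, VDR 0.107 to 0.675 against 0.134 to 1.05, and KL at most 0.317 in any library. Of the 4 genes tested 0 were called by limma, where 0.836% of all genes were called lower and 0.262% higher. At an unadjusted p under 0.05 the numbers were 2 of 4 and 14.7% of all genes. As in kidney, nothing is read from these counts.

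The summed hepatocyte markers were 60865 to 90651 FPKM in KO liver against 102356 to 117616 in WT, with 4 of 13 tested markers lower and 0 higher. Macrophage and Kupffer cell markers summed to 40.7 in KO2 and 253 in KO3 against 1027 and 980 in WT. Per 1000 FPKM of hepatocyte markers, GC was 4.55 and 6.67 in KO and 7.21 and 7.75 in WT, a 1.33-fold difference. PTH1R was 0.0382 and 0.0459 against 0.0832 and 0.0719, a 1.84-fold difference. CYP27A1 was 1.16 and 0.534 against 0.906 and 0.428, overlapping.

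The genes and tests were chosen with earlier results of these data known. The 5 tissues other than kidney and liver were not named in that choice and were tested. None of the members that reached the level filter was called there by limma: 3 tested in brain (0% of all genes called), 2 in muscle (2.32%), 3 in thymus (0.00772%), 2 in heart (0.18%) and 5 in lung (0%). CYP27B1 and KL in lung and CYP2R1 in thymus reached the filter through 1 genotype only. At an unadjusted p under 0.05 the only member to pass was KL in lung, where 7.27% of all genes did, and the share of all genes in the other 4 tissues ran from 5.92% in thymus to 13.5% in muscle. With the 2 libraries of an animal counted as separate replicates, which share the animal, CYP2R1 in thymus, PTH1R in heart and KL in lung were called, in fits that called 11.4%, 12.6% and 16.4% of all genes.

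In lung the KO libraries of CYP27B1 lay above the WT libraries, opposite to kidney, and most of that was 1 animal. KO3 had 9.66 and 9.78 FPKM and KO2 1.03 and 0.752, against 0.557, 0.557, 0.363 and 0.314 in WT. The change was 1.81 (SE 0.78, adjusted p = 0.735). CYP27B1 reached the level filter in lung through KO3 alone, and the other 3 animals averaged 0.595 FPKM. VDR in lung behaved alike in KO3, at 7.69 and 8.67 FPKM, against 1.25 and 0.462 in KO2 and 0.931 to 1.24 in WT (change 1.11, SE 0.74, adjusted p = 0.84). Markers of macrophages, a cell type known to make CYP27B1 outside the kidney, summed to 480 FPKM in KO3 lung, 36.6 in KO2 and 164 and 182 in WT, with 0 of 10 called. The part of these cells in the CYP27B1 level was not tested.

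KL in lung was lower in both KO animals, at 0.787, 0.714, 0.446 and 0.565 FPKM against 6.05, 6.16, 2.64 and 2.43 in WT. The libraries did not overlap, but the change of −1.45 (SE 0.49) did not pass (adjusted p = 0.611). PTH1R in lung had 12.7 and 12.1 FPKM in KO2 and 43.4 and 39.7 in KO3, on either side of WT libraries of 27.2 to 29.5 (change −0.13, SE 0.61, adjusted p = 0.939).

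PTH1R stood above WT in both KO animals in heart and thymus. In heart the KO libraries had 7.0, 9.89, 8.43 and 7.83 FPKM against 2.74, 1.78, 5.51 and 5.36 in WT, and the change was 1.08 (SE 0.48, adjusted p = 0.55). In thymus, below the filter, KO libraries had 0.553 to 1.52 FPKM against 0.180 to 0.455. In muscle the KO libraries had 2.70 to 3.89 against 1.63 to 3.45 (change 0.37, adjusted p = 0.838), and in brain 0.772 to 2.29 against 1.18 to 1.61 (change 0.34, adjusted p = 0.869).

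CYP2R1 in thymus had 0.836, 0.643, 1.04 and 1.03 FPKM in KO libraries and 1.98, 2.14, 2.89 and 2.15 in WT libraries. All KO libraries lay below all WT libraries, and the change of −0.59 (SE 0.38) did not pass (adjusted p = 0.7). Below the filter, KO libraries of CYP2R1 also lay under all WT libraries in muscle, at 0.267 to 0.482 FPKM against 0.689 to 1.02, and in heart, at 0.330 to 0.654 against 0.669 to 1.18. In lung, at 0.0907 to 1.14 against 0.715 to 1.30, and in brain, at 0.795 to 1.90 against 0.683 to 1.69 (change 0.15, SE 0.35, adjusted p = 0.955), the libraries overlapped. VDR in thymus had a change of 0.47 (SE 0.41, adjusted p = 0.828), with KO3 at 2.08 and 1.89 FPKM and the other 6 libraries at 0.709 to 1.27. In heart VDR was at 1.23 and 1.36 FPKM in KO3 and at most 0.448 in the other libraries.

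CYP27A1 showed the split between the 2 KO animals in more tissues than any other member. In kidney, muscle, thymus, heart and lung, 5 of 7 tissues, KO3 lay above both WT animals and KO2 below both. The ratio of KO3 to KO2 was 3.09 in kidney, 2.69 in muscle, 2.95 in thymus, 4.04 in heart and 5.30 in lung, but 0.660 in liver and 0.374 in brain. In brain the order was turned, with 4.00 and 3.88 FPKM in KO2, 1.49 and 1.46 in KO3 and 2.60 to 3.53 in WT. In heart KO2 had 3.36 and 2.89 FPKM, KO3 12.9 and 12.4, and WT libraries 4.05 to 6.24. None of the KO against WT changes in the tissues tested passed: 0.32 in muscle (SE 0.51, adjusted p = 0.88), 0.49 in thymus (SE 0.45, adjusted p = 0.837), 0.35 in heart (SE 0.56, adjusted p = 0.956), 0.75 in lung (SE 0.71, adjusted p = 0.897) and −0.03 in brain (SE 0.42, adjusted p = 0.802).

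**Figure D3:**
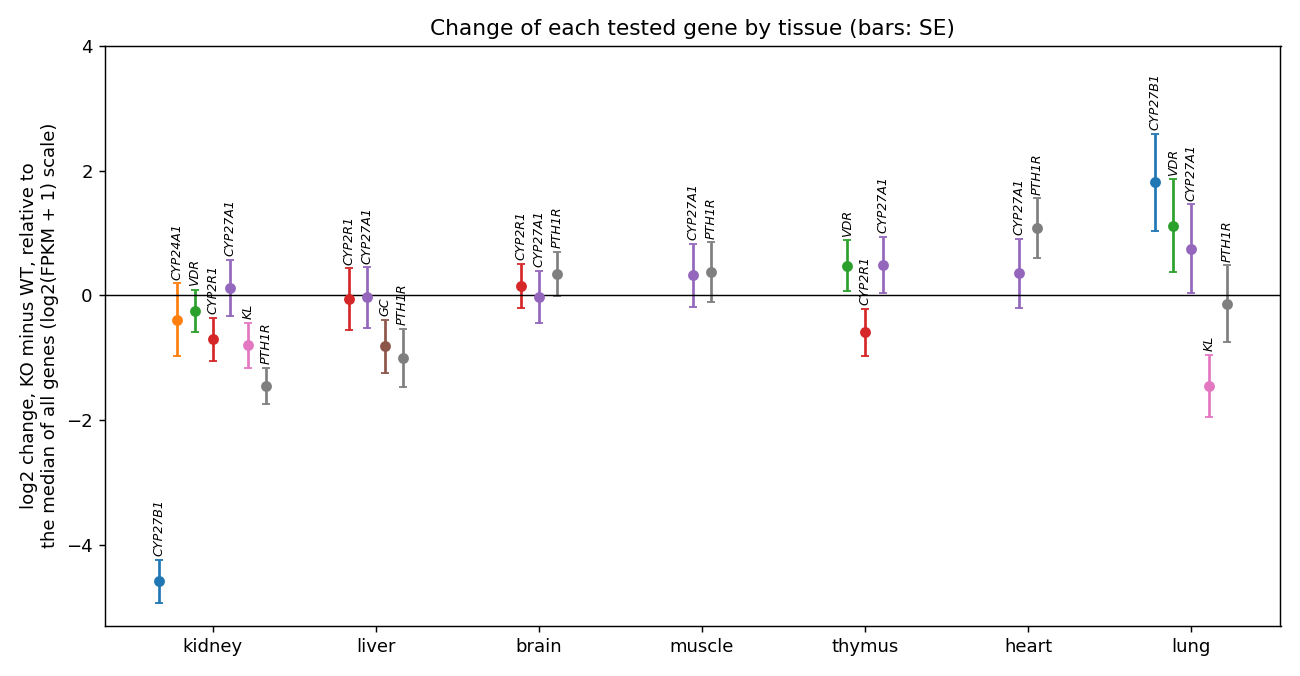
Log2 change of KO against WT relative to the median of all genes, on the log2(FPKM + 1) scale, for each of the 8 genes in each tissue where it was tested; bars are the SE from limma with 2 animals per genotype. CYP27B1 stands at −4.59 in kidney and at 1.81 in lung, with an SE of 0.34 in kidney and 0.78 in lung.

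In wild-type fetal tissue 2 members, CYP27A1 and PTH1R, reached the level filter. CYP27A1 in muscle had 15.7 and 13.3 FPKM at month 2 and 7.48 and 9.02 at month 4, without overlap, and fell by 0.91 on the log2 scale (SE 0.20, adjusted p = 0.0148; 37.9% of all genes were called). The call was lost without the level filter (adjusted p = 0.0584) and without either month 2 library (0.196 and 0.0822). PTH1R in muscle had 8.93 and 8.59 at month 2 and 5.13 and 7.76 at month 4 (change −0.58, SE 0.22, adjusted p = 0.164), and it was called without the second month 4 library (adjusted p = 0.0152). In fetal brain 0 of the 2 were called by limma, where 4.01% of all genes were, and 0 passed at an unadjusted p under 0.05. CYP27A1 there had 2.36 and 1.77 against 3.62 and 1.70, and PTH1R 0.988 and 1.10 against 1.16 and 0.817. CYP2R1 ran from 0.305 to 1.22 FPKM over the 8 libraries, and the other 5 members were low in all of them. Nothing states that these libraries are separate fetuses, so their p-values may reflect technical spread alone.

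The genes around the 8 members were taken from 6 lists, holding 97 different genes. In kidney 79 of them could be tested, of which 10 were called lower (12.7%, against 4.76% of all genes) and 1 higher (1.27%, against 1.02%), and their median change was −0.48. In liver 2 of 64 were lower (3.13%, against 0.836%) and 0 higher, with a median of −0.12. The lists share genes with the marker lists, and without the shared ones 6 of 66 were lower in kidney (9.09%) and 1 higher. Those 6 still include the proximal tubule cotransporter SLC34A3 and its scaffold SLC9A3R1. The lists were chosen with earlier results of these data known, so nothing is read from the kidney and liver counts. In muscle 3 of 55 were called, and in brain, thymus, heart and lung 0 of 53 to 63. Without the level filter no gene of any list was called, since no gene at all passed in any tissue.

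The list on FGF23, klotho and phosphate had 3 of 17 lower and 1 higher in kidney, with a median of −0.42. SLC34A3 and SLC34A1, the sodium phosphate cotransporters of the proximal tubule, fell. SLC34A3 had 3.61 and 1.81 FPKM in KO, against WT levels of 46.6 and 29.5, a change of −3.38 (SE 0.36, adjusted p = 0.00244). SLC34A1, also a proximal tubule marker above, stood at 29.1 and 37.8 against 141 and 172, a change of −2.15 (adjusted p = 0.00552). SLC9A3R1, a scaffold that holds the cotransporters at the brush border, fell by 1.13 (adjusted p = 0.0438). FGFR3, a receptor for fibroblast growth factors, rose by 1.47 (adjusted p = 0.0302). The calls of SLC9A3R1 and FGFR3 were lost without either WT animal or without KO2, that of SLC9A3R1 also with quantile normalisation (adjusted p = 0.117), and that of SLC34A1 without WT3 (0.054).

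Among known targets of VDR, 3 of 14 were lower in kidney and 0 higher, with a median of −0.56. SPP1, the bone and kidney matrix protein osteopontin, fell by 2.86 (adjusted p = 0.0342), CALB1, the calcium buffer of the distal tubule, by 1.71 (adjusted p = 0.0114) and FBP1, a gluconeogenic enzyme, by 1.61 (adjusted p = 0.0155). CALB1 had 92.4 and 93.6 FPKM in KO2 and KO3, against WT levels of 338 and 294. Its call and that of FBP1 were lost without either WT animal, and that of SPP1 without WT3 (adjusted p = 0.165) or with quantile normalisation (0.088). CALB1 is itself 1 of the loop and distal tubule markers used above.

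Of 14 genes of tubular calcium and magnesium handling, 2 were lower and 0 higher, with a median of −0.81. Of the 15 genes listed, 8 are also loop and distal tubule markers, the called ones among them. They were EGF, a magnesium-regulating hormone precursor of the distal tubule, with KO levels of 0.898 and 0.304 FPKM against WT levels of 11.7 and 20.3 (change −3.35), and the sodium chloride cotransporter SLC12A3 at 8.15 and 15.8 against 68.7 and 74.1 (change −2.50, adjusted p = 0.00563). EGF reached the level filter through WT alone, so it had to be lower in KO, and nothing is read from its call. Of 11 genes of parathyroid hormone and calcium sensing, 1 was lower: CASR, the calcium-sensing receptor, at 2.60 and 4.85 against 13.3 and 16.9 (change −1.76, adjusted p = 0.02, lost without either WT animal).

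Of 9 precursor and breakdown enzymes 1, the sterol isomerase EBP, was lower in kidney (change −1.23, adjusted p = 0.0322, lost without KO2, without either WT animal or with quantile normalisation), and the list median was −0.89. Of 14 genes of transport, uptake and receptor partners 0 were called by limma, with a median of −0.20. The smallest p there were those of CUBN and AMN, the proximal tubule uptake receptor cubilin and its partner, at changes of −1.05 (adjusted p = 0.0911) and −0.80 (adjusted p = 0.169).

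In liver POR, the reductase that passes electrons to microsomal P450 enzymes such as CYP2R1, fell from 440 and 645 FPKM in WT to 52.4 and 46.1 in KO (change −3.22, SE 0.42, adjusted p = 0.00399). The acute-phase protein ORM1, in the list of VDR targets, fell from 1030 and 5032 to 6.19 and 18.7 FPKM (change −7.39, SE 0.71, adjusted p = 0.000749). The ORM1 call was lost without KO2 (adjusted p = 0.0744), and that of POR without KO2 (0.0683), without KO3 (0.051) or with quantile normalisation (0.0513). The liver medians of the other lists ran from −0.38 for parathyroid hormone and calcium sensing to 0.32 for FGF23, klotho and phosphate. FGF23 and ALPL, the tissue-nonspecific alkaline phosphatase, had the smallest p of the last list and did not pass (adjusted p = 0.161 and 0.0949). In the other lists without a call in liver, the smallest p belonged to DAB2 and PDIA3 (changes of −1.09 and −0.63, adjusted p = 0.23 and 0.388), RAMP1 and RAMP2, partners of hormone receptors (−0.89 and −1.0, adjusted p = 0.291 and 0.293), and the claudin CLDN10 and the sodium pump subunit FXYD2 (1.02 and 1.81, adjusted p = 0.501 and 0.204). FGF23 had 1.45 FPKM in KO2 liver and 15.9 in KO3, against 0.172 and 0.186 in WT, so it reached the level filter there through KO alone.

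**Figure D4:**
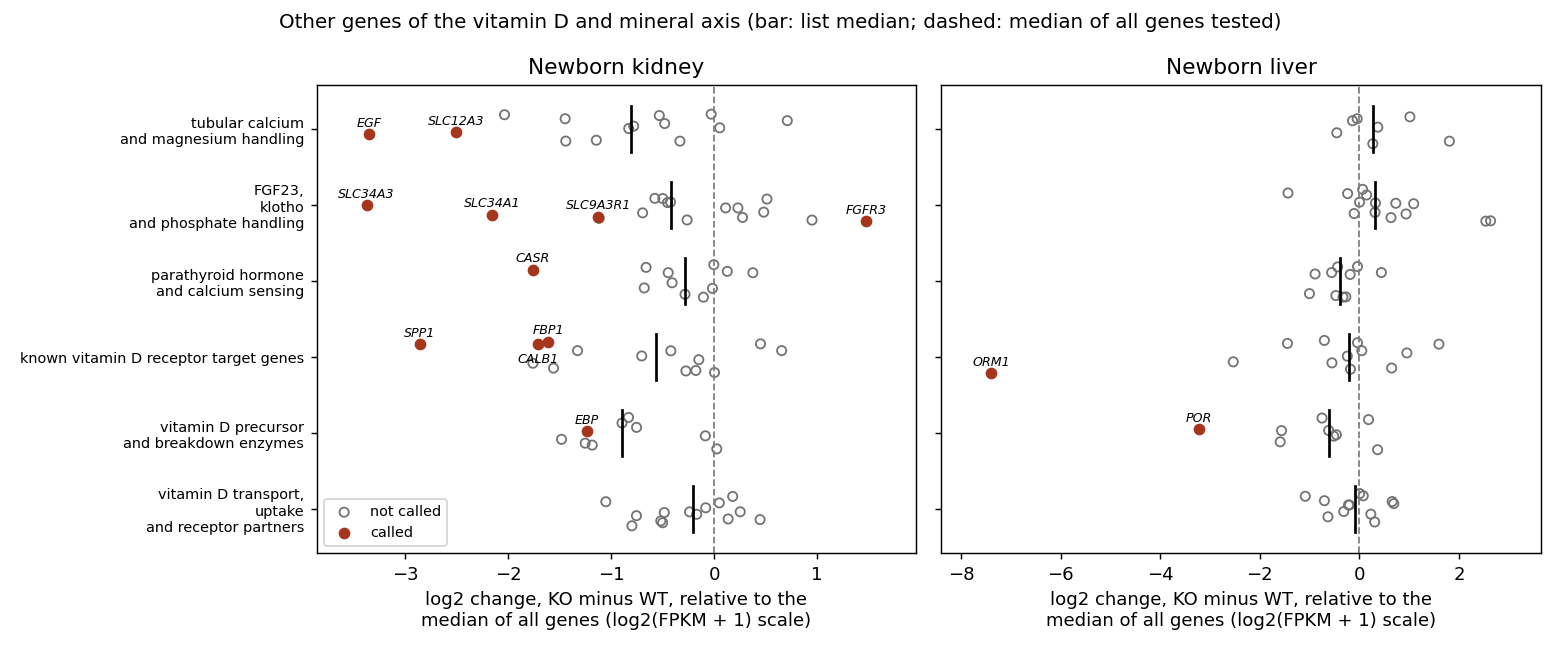
Log2 change of KO against WT relative to the median of all genes (dashed line), for each tested gene of the 6 lists in kidney and liver; filled points are genes called by limma, and the bar is the list median. In kidney the called genes except FGFR3 lie to the left, from −1.13 to −3.38, and in liver POR and ORM1 are the only called genes.

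The genes whose levels followed each member most closely over the 28 means of an animal and tissue were found among 13527 genes by Pearson's r of log2(FPKM + 1), and these correlations are descriptions, since means share animals and tissues and most of the spread is between tissues. CYP27B1 was closest to OLR1, a receptor for oxidized lipoprotein (r = 0.95, Spearman's rho = 0.81), then to the proton pump ATP12A (0.88 and 0.66) and FAM151A (0.87 and 0.33). OLR1 had 0.969 and 1.60 FPKM in KO kidney, 16.6 and 9.08 in WT kidney, and 0.492, 8.11, 1.45 and 1.09 in the lungs of KO2, KO3, WT2 and WT3, so it shared both the kidney and the KO3 lung values of CYP27B1. ATP12A had 2.03 and 0.720 FPKM in KO kidney, against 11.9 and 61.4.

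PTH1R was closest to PLXNB2, TMEM98 and SLC44A4, each at r = 0.93, with rho of 0.88, 0.93 and 0.80. KL was closest to the tubule transcription factors TFCP2L1 (r = 0.99, rho = 0.54) and ELF5 (0.96 and 0.45) and to TMEM213 (0.97 and 0.31), where the low rho shows that kidney against the rest carries the r. VDR followed ADGRF1 (0.85 and 0.64), TSPAN1 (0.85 and 0.49) and the sodium channel subunit SCNN1G (0.84 and 0.78). GC followed the hepatic secreted proteins C8A (1.0 and 0.93), A1BG (1.0 and 0.82) and SERPINA11 (1.0 and 0.93).

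CYP27A1 followed ANG (0.91 and 0.89), ABCA6 (0.89 and 0.86) and TMEM150A (0.88 and 0.89). CYP2R1 followed SEPSECS (0.89 and 0.85), SHPK (0.88 and 0.87) and SMIM14 (0.87 and 0.84). CYP24A1, with a measurable level in few samples, had the weakest likeness, to FOXI1 (0.75 and 0.70), SLCO4C1 (0.73 and 0.78) and MRO (0.72 and 0.60).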

How the data were processed

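The authors deposited FPKM per gene in a newborn and a fetal table of 28141 genes each, made, per the submitters' processing notes, with Cufflinks 2.0.2, HISAT 0.1.6 and CASAVA, whose roles the notes leave out. Per the labels' protocols, total RNA was purified on columns and libraries were made with the TruSeq kit. No coordinates or sequences are printed, since genome build, annotation and strandedness were not given in the sources used here. FPKM keeps no read depth, so depth is unknown and no counting interval is given. LOC names were matched to symbols with a RefSeq gene table (721 of 11294 matched), used for names alone.

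KO2, KO3, WT2 and WT3 were read from the titles as 4 animals and the last number as a repeat library. The log2(FPKM + 1) values of the 2 libraries were averaged per animal, and each comparison was fitted over genes averaging at least 1 FPKM in limma 3.58.1 (R 4.3.3; lmFit, eBayes with a trend), tested on simulated data, with Benjamini-Hochberg adjustment and a threshold of 0.05. That the animals are separate is read from their numbers. An exact permutation test of 2 against 2 cannot go below p = 0.333. Same-numbered KO and WT animals did not deviate together and were not paired.

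The 8 genes, the gene lists and the tests were chosen with earlier results of these data known. Named genes were the 8 members, SIRT6, up to 4 called genes per list in kidney and 3 in liver by size of change (where none was called, the 2 with the smallest p were to be named as values), and the 3 closest genes by Pearson's r. Genes shown by tissue beyond that rule (FGF23, OLR1, ATP12A) were followed after their values were seen, as was the level per 1000 FPKM of markers. Marker lists are of kidney segments, podocytes, nephron progenitors, hepatocytes, fetal hepatocytes, cholangiocytes, erythroid cells and macrophages. The settings varied were the pseudocount (0.1), the level filter (none), quantile normalisation, libraries as replicates, the replicate block, no animal term (WT tissues) and leaving out each animal or fetal library.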

Additional observations from a re-analysis of the deposited data

Results flagged for a closer look

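CYP27B1 and PTH1R stood on opposite sides of WT in different tissues. Only tissues with a genotype mean of 1 FPKM or more and no overlap between KO and WT libraries were taken. Both KO animals therefore lay on the same side by the choice of tissues. PTH1R had KO2 and KO3 on either side of the WT animals in lung and brain, and KO3 between them in muscle. For CYP27B1 the log2 ratio of KO to WT mean FPKM was −5.96 in kidney and 3.57 in lung. For PTH1R it was −1.53 in kidney and −1.40 in liver, but 1.53 in thymus and 1.11 in heart. The difference between these tissues was not tested, and kidney and liver were part of how the genes were chosen. CYP27B1 reached the level filter in lung through KO3 alone and was not fitted without it, and the part of the macrophage markers that were high in KO3 lung was not tested.

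The highest of the 4 WT kidney libraries of CYP27A1, at 12 FPKM, lay far from the other 3 for so narrow a group, which ran from 11.3 FPKM. Chance gives about 1 such library in 20 groups only where the libraries are independent. Libraries of the same animal share that animal, so this rate does not apply here. It is also a rate per group, and the number of groups searched is not given, so nothing is read from this library.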

How the results depend on the processing

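Values here are before subtraction of the median of all genes, and where a call changed the cause was not tested. Of 346 alternative values of 44 member changes, 325 kept their sign. That number includes settings in which no sign could turn. Dropping the level filter or animal term, adding the replicate block, or counting libraries as replicates leaves a member's change as it was. Members called in kidney numbered 2, but 0 without the level filter, 1 with quantile normalisation, 4 with each library as a replicate, and 1 to 2 when an animal was left out; PTH1R was the call lost without WT2 or WT3. With each library as a replicate 2 were called in liver and 1 each in thymus, heart and lung. Those fits called 36.7% of all genes in kidney, 29% in liver, 11.4% in thymus, 12.6% in heart and 16.4% in lung. In kidney 5.78% of all genes were called in the main fit and 5.63% with quantile normalisation. Leaving out an animal gave 0 to 1 in lung, the call being CYP27B1 without KO2 (adjusted p = 0.0222), with KO3, through which it reached the filter, alone against WT and assumed to vary as WT does. Fetal muscle had 1 call, 0 without the filter, and 0 to 2 when a library was left out.

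When an animal or library was left out, signs turned for CYP27A1 in kidney (−0.67 to 0.82) and liver (−0.67 to 0.21; 0.11 with quantile normalisation), CYP2R1 in liver (−0.68 to 0.18), VDR in WT liver (−0.90 to 0.075), CYP2R1 (−0.29 to 0.19; 0.074 with quantile normalisation), PTH1R (−0.17 to 0.44) and CYP27A1 (−0.73 to 0.26) in brain, CYP27A1 in muscle (−0.34 to 0.98), heart (−0.57 to 1.16), thymus (−0.23 to 0.79) and lung (−0.51 to 1.66), VDR in thymus (−0.036 to 0.57) and lung (−0.23 to 2.11), and PTH1R in lung (−1.14 to 0.53). The same held in fetal brain for CYP27A1 (−0.18 to 0.60) and PTH1R (−0.086 to 0.081). CYP27B1 in WT liver was at 0.028 with a pseudocount of 0.1. Leaving out a WT animal left no residual spread in the tissue comparisons, so they have values and no test there.

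Over all genes, calls in kidney (806) numbered 0 without the filter, 5119 with libraries as replicates, 1621 without KO3, and 182 and 187 without WT2 and WT3. Calls in liver (134) numbered 0, 3545 and, with quantile normalisation, 19, and ran from 28 to 338 when an animal was left out. Those in muscle (281) were 0, 2768 and 14, with 103 to 367. Those in heart (22) were 0, 1539 and 0, with 13 to 290. Thymus (1), brain (0) and lung (0) reached 1484, 4168 and 2170 with libraries as replicates, and 831, 2369 and 338 without KO3. Fetal brain (526) had 0 without the filter, 234 with quantile normalisation and 0 to 1377 when a library was left out, and fetal muscle (4687) had 2488 without the filter and 1905 to 6756. Without the filter the genes at an unadjusted p under 0.05 ran from 1130 in thymus to 3656 in kidney.

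With the number as a replicate block, members called stayed at 2 in kidney, SLC9A3R1 was no longer called there (adjusted p = 0.0635), and calls over all genes were 826 in kidney, 233 in liver, 226 in heart, 21 in lung, 403 in fetal brain and 5611 in fetal muscle. Deviations of same-numbered samples correlated at −0.10 (liver) to 0.09 (thymus) in newborns and at −0.23 in fetal brain, so only the number is shared. Quantile normalisation moved the median of all genes from 0.26 to −0.13 in the WT kidney comparison.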

Other observations

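FGF23, the bone hormone that lowers CYP27B1, was highest in KO3 among the 4 newborns in liver, heart and kidney. Its level was 15.9 FPKM in liver, 2.51 in heart and 0.891 in kidney of KO3. KO2 had 1.45, 0.235 and 0.0266 FPKM in the same tissues, and the highest WT level of these 3 tissues was 0.186, in liver. These tissues were picked after the values were seen. In thymus WT3 was highest, at 0.656 FPKM, against 0.166 in WT2, 0.111 in KO2 and 0.253 in KO3. In lung FGF23 was listed at 0 in all 4 KO libraries.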
